A study of Homo sapiens with 6 samples.

Results

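Interferon-stimulated genes were examined in cells of the human breast cancer line MDA-MB-231 that had received an adenovirus for the p110 form of ADAR1. The line is triple-negative and mesenchymal-like. The set held 38 named genes that interferon is known to induce, found by their symbols. All 38 were found among the 60461 genes of the deposited count table, and all 38 were among the 18899 genes with enough counts to be tested. Cells in 3 libraries carried an adenovirus coding for ADAR1 p110, and cells in the other 3 carried an eGFP control adenovirus, called GFP here. Every culture received virus at a multiplicity of infection of 200, had its medium changed 16 h after transduction, and gave total RNA at 48 h. No culture without virus was analysed here, so levels in GFP cells are levels in virus-exposed cells. Both groups are 1 cell line, and the promoter that drove each insert is not given in the sources used here. The labels call the replicates biological but do not describe separate cultures, and a p-value here reflects no more than the variation among 6 libraries.

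Type I and type III interferons bind receptors at the cell surface and activate the kinases JAK1 and TYK2. These act through STAT and IRF transcription factors, among them STAT2 and IRF9, which bind the interferon-stimulated response element (ISRE) in promoters. Their targets include sensors of foreign RNA, inhibitors of viral entry and replication, and the ubiquitin-like ISG15 system. ADAR1 deaminates adenosine within double-stranded RNA. Loss of ADAR1 is known to let cellular double-stranded RNA trigger interferon responses in several cell types, and the cytoplasmic p150 form, itself interferon-inducible, is the one mainly tied to that role.

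The response element was looked for in the promoters, and its letters are shown for the genes on which the results turn. RefSeq promoter windows (GRCh38.p14, 250 bases before to 50 after a start) were present for 31 of the 38 genes. The ISRE core was searched as GAAANNGAAA on both strands. Each line gives 30 bases, 5′ to 3′ on the strand named, with the ISRE core in capitals. MX1, OAS3 and PARP14 were lower with ADAR1 p110, while SAMD9, DTX3L with PARP9, IFIT1 and ISG15 are their relatives or abundant genes that did not pass the test.
MX1, chr21:41420559-41420588, plus strand: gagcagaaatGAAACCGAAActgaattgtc
OAS3, chr12:112938321-112938350, plus strand: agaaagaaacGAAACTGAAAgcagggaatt
OAS3, chr12:112938452-112938481, plus strand: agccgggcggGAAAACGAAAccagaaatcc
PARP14, chr3:122680800-122680829, plus strand: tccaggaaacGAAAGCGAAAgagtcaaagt
DTX3L and PARP9, chr3:122564322-122564351, plus strand: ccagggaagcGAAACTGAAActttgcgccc
SAMD9, chr7:93118096-93118125, minus strand: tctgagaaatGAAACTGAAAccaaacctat
IFIT1, chr10:89392497-89392526, minus strand: accgaaagggGAAAGTGAAActaaagctag
IFIT1, chr10:89392510-89392539, minus strand: gaaacctaggGAAACCGAAAggggaaagtg
ISG15, chr1:1013380-1013409, plus strand: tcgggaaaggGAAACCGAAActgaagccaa
DTX3L and PARP9 are transcribed away from each other, and the same element lies in both of their windows. The 2 IFIT1 lines overlap in their flanks, while their cores share no base. A further ISG15 core, within chr1:1013374-1013403 on the plus strand, shares bases with the core shown and is not printed. A further MX1 core, in another of its windows (within chr21:41431844-41431873, minus strand), is not printed either.

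The ISRE core was found in 24 of these 31 genes, or 77.4%, against 1195 of the 27305 genes with a window in the same table, or 4.38%. It was absent from the windows of CMPK2, HERC6, IFI35, OAS1, SAMD9L, SP110 and XAF1. Among the 6 genes that were lower with ADAR1 p110 it was found in 3, namely MX1, OAS3 and PARP14. Among the 25 other genes with a window it was found in 21. The gamma-activated sequence (GAS), the element through which IFN-gamma acts, was searched as TTCNNNGAA on both strands. It was found in 10 of the 31 genes, or 32.3%, against 9.38% of all genes with a window. Among the 6 lower genes GAS was found in 3, and among the 25 others in 7. In BST2, EPSTI1, IFI27, IFITM1 and MX1 an ISRE core and a GAS match shared bases. In MX1 this was the core not printed above. IFIT2, IFITM2, MX2, OAS2, OASL, TRIM22 and USP18 had no window in the table used. A match of letters is a description, and binding was not measured.

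ADAR was 3.76-fold higher in the ADAR1 p110 libraries, at 1006 ± 13.2 counts scaled for library size (CPM), against 267 ± 8.67 CPM in the GFP libraries (SD, n = 3 each; log2 fold change 1.91, edgeR adjusted p 2.67e-09). These counts do not separate transgene from cellular transcripts. Each library held 72741235 to 99589278 counts, so that the 3 counts that a 0 allows were worth 0.0305 to 0.0414 CPM, a limit that covers counting error only. On the second principal component, with 22.5% of the variance, ADAR1 p110 replicate 1 and GFP replicate 2 stood apart from the other 4 libraries, so results are also given without them where they changed. The line's own markers were abundant, with VIM at 2179 CPM in ADAR1 p110 and 1952 CPM in GFP libraries, and of 5 luminal genes ESR1, PGR and FOXA1 had at most 6 counts in any library. The other 2, EPCAM and GATA3, stood at 10.6 and 3.61 CPM in ADAR1 p110 and 10.2 and 3.54 CPM in GFP libraries. The leukocyte list summed to 3.17 to 3.82 CPM in ADAR1 p110 and 3.96 to 5.10 CPM in GFP libraries. Of its 8 genes CD14 made up most of the sum, at 2.91 ± 0.429 CPM in ADAR1 p110 and 3.60 ± 0.537 CPM in GFP libraries (SD, n = 3 each), and PTPRC had 15 to 34 counts in ADAR1 p110 and 23 to 24 in GFP libraries. CD3E and MS4A1 were at 0 in every library, and LST1 was lower, with 2, 1 and 2 counts in ADAR1 p110 and 32, 13 and 17 in GFP libraries. The part of these few reads in the results was not tested.

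The 38 genes were expressed in both groups over a wide span. Per kilobase (kb) of gene length, the scale on which genes can be compared, ISG15 was highest at 228 CPM per kb in ADAR1 p110 and 208 CPM per kb in GFP cells. IFIT3 followed with 143 CPM per kb in ADAR1 p110 and 146 in GFP cells, then LGALS3BP, a secreted glycoprotein, with 126 CPM per kb in ADAR1 p110 and 129 in GFP cells. BST2 (tetherin, which holds budding virus at the cell surface) stood at 94.1 CPM per kb in ADAR1 p110 and 100.3 in GFP cells. The lowest was CMPK2, a mitochondrial nucleotide kinase, at 0.332 CPM per kb in ADAR1 p110 and 0.313 in GFP cells, which is 664-fold under ISG15 in GFP cells. IFI44L, MX2 and OAS1 also stayed under 1 CPM per kb in both groups. Ranked among the tested protein-coding genes of GFP cells, the middle member lay at percentile 62.7, 7 members were in the top 10%, and 14 were below the middle.

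**Figure D1:**
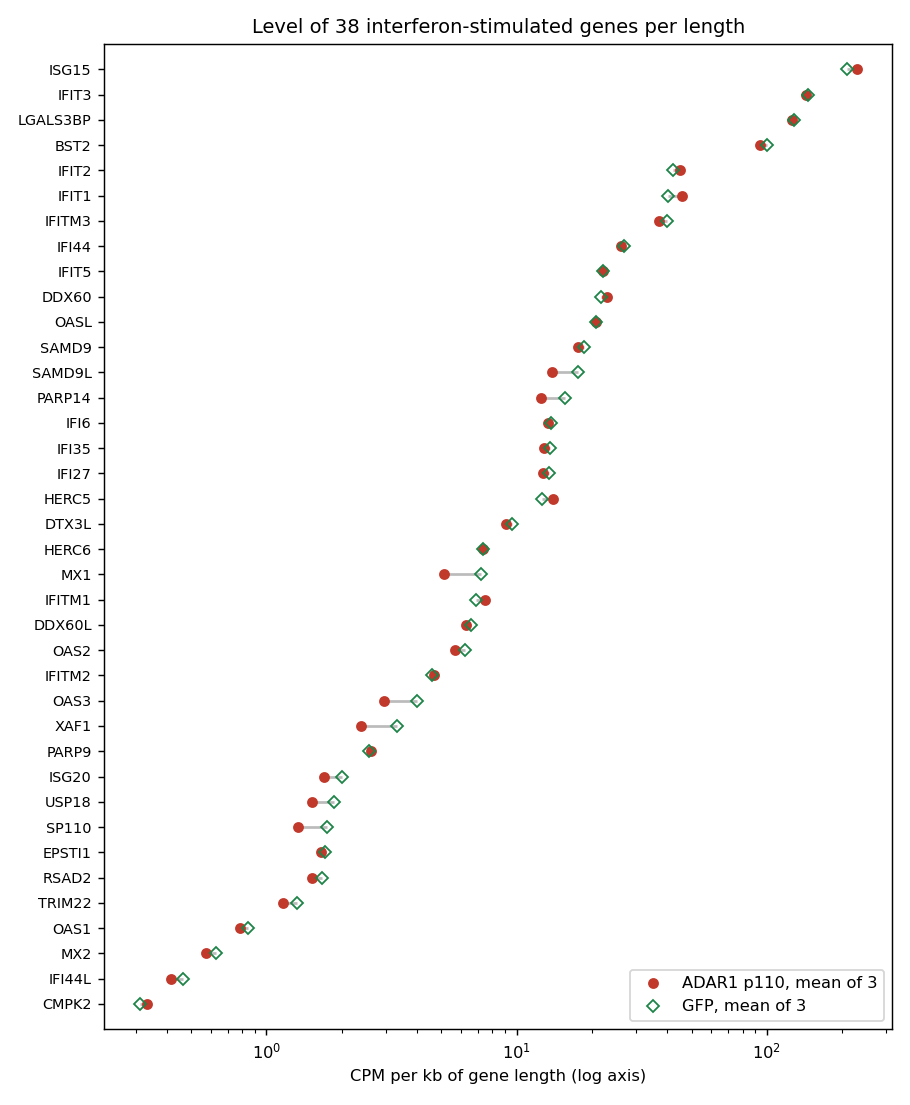
Mean level of each of the 38 genes in CPM per kb of gene length (log axis), with filled red circles for ADAR1 p110 and open green diamonds for GFP, 3 libraries each. The genes run from ISG15 at the top to CMPK2 at the bottom, and the circle and diamond of a gene lie close together beside the span between genes, with the widest gaps for MX1, XAF1 and OAS3.

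Summed over the 38 genes, the level was 2764, 2869 and 2967 CPM in ADAR1 p110 libraries and 2993, 2853 and 2994 CPM in GFP libraries. The groups overlapped. LGALS3BP, IFIT3, ISG15, IFIT1 and IFIT2 made up 47.5% of the GFP sum, so it says little about the other members. As a share of the scaled library totals behind CPM, and not of raw counts, the genes took 0.276% to 0.297% in ADAR1 p110 libraries. In GFP libraries they took 0.285% to 0.299%. In bulk RNA, fewer cells with a transcript and less of it per cell cannot be told apart.

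Of the 38 genes, 6 were lower with ADAR1 p110 and 0 were higher at an edgeR quasi-likelihood adjusted p under 0.05 over all tested genes. The 6 are MX1, XAF1, OAS3, SP110, SAMD9L and PARP14, and they make 15.8% of the members. Over all tested genes 2.96% were lower and 1.95% higher, as 559 and 368 genes. Scaling by library size alone gave 479 lower and 510 higher genes, and the same 6 lower members. At an unadjusted edgeR p under 0.05, 9 members were lower and 2, IFIT1 and HERC5, were higher, against 9.43% lower and 9.21% higher of all tested genes. DESeq2's Wald test and limma-voom each gave the same 6 lower and 0 higher members.

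In 10 of the 38 genes, or 26.3%, every ADAR1 p110 library lay below every GFP library, against 12.2% of all tested genes. In 4, ISG15, IFIT1, DDX60 and HERC5, every ADAR1 p110 library lay above, or 10.5% of members against 11.8% of all tested genes. The remaining 24 overlapped. The median log2 fold change of the members was -0.07, against 0.00 over all tested genes, with 28 members below 0 and 10 above. Over all tested genes, 9222 lay below 0 and 9677 above. The changes were small. For 36 of the 38 genes the whole 95% interval of the fold change lay within 1.5-fold in either direction, the exceptions being MX1 and XAF1. Among the 32 genes not called, the interval reached farthest down for USP18, to a 1.48-fold lower level, and farthest up for CMPK2, to a 1.37-fold higher one.

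**Figure D2:**
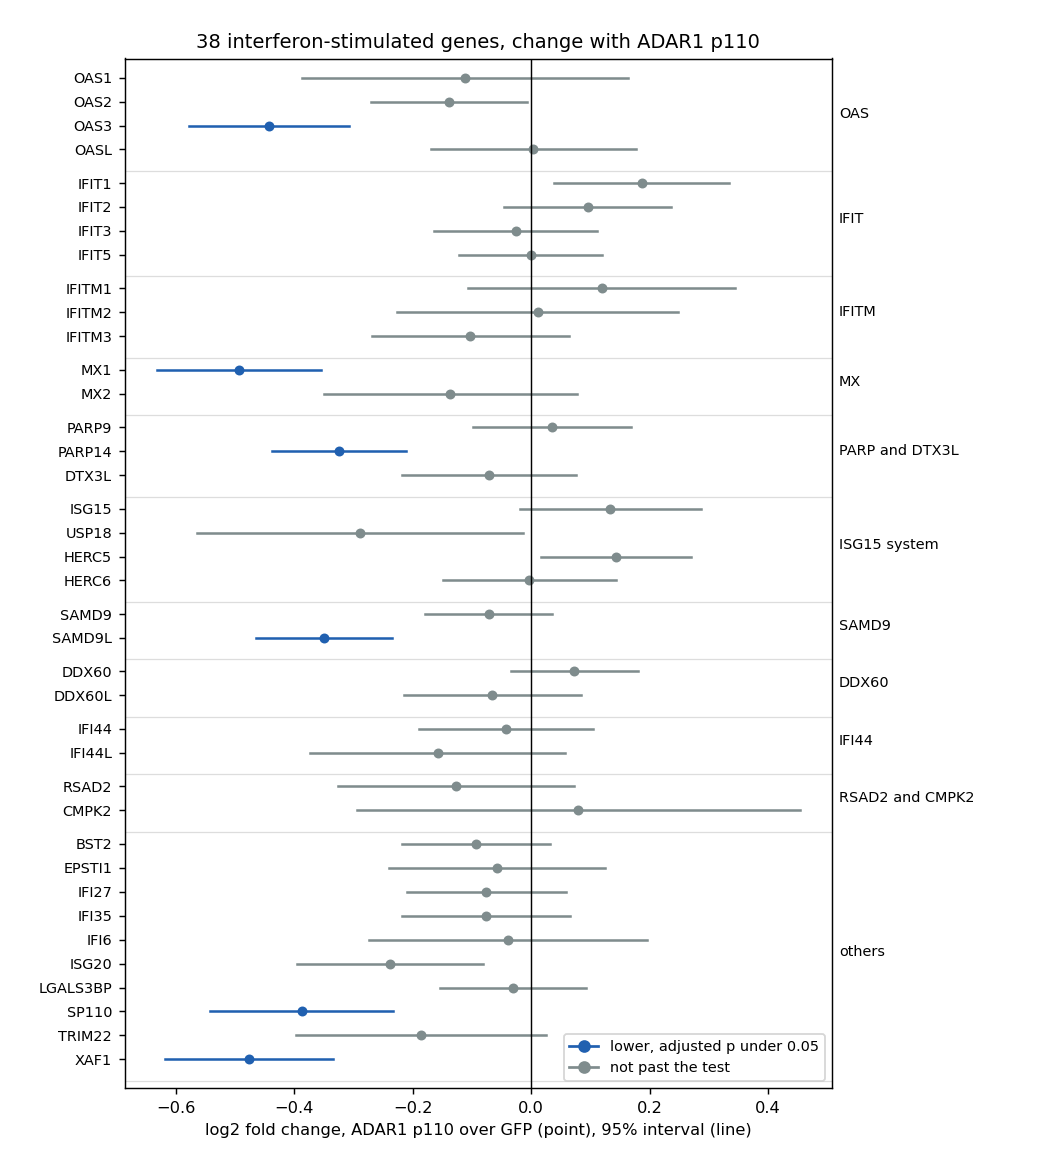
Log2 fold change, ADAR1 p110 relative to GFP (points), with its 95% interval (lines) for the 38 genes, grouped by family, from the edgeR fit over 18899 genes. The 6 blue genes passed an adjusted p of 0.05 and lie between -0.49 and -0.32, and the grey genes did not pass and lie between -0.29 and 0.19.

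Without ADAR1 p110 replicate 1 and GFP replicate 2, 8 members were lower and 2 were higher. ISG20 (log2 fold change -0.24, edgeR adjusted p 0.0383) and IFITM3 (-0.16, adjusted p 0.0314) joined the lower genes. IFIT1 (0.21, adjusted p 0.00309) and HERC5 (0.19, adjusted p 0.0162) were the 2 higher ones. The counts over all tested genes grew as well in those 4 libraries, from 559 to 1424 lower and from 368 to 1181 higher. The gain in calls was therefore not particular to the members. The share of all tested genes called in that fit was not computed, so the 8 lower and 2 higher members have none beside them.

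The MX proteins are dynamin-like GTPases that block viral nucleocapsids. MX1 (chr21:42792231-42831141, plus strand, hg19) had 41.5, 44.2 and 46.5 CPM in ADAR1 p110 libraries and 64.6, 58.3 and 63.1 CPM in GFP libraries. Every ADAR1 p110 library lay below every GFP library, and MX1 showed the farthest fall of the 38 genes, its log2 fold change being -0.49 ± 0.0627 (SE; edgeR adjusted p 0.00112). Its neighbour MX2, which acts against lentiviruses at the nuclear pore, had 6.56, 7.89 and 7.93 CPM in ADAR1 p110 and 8.68, 7.57 and 8.34 CPM in GFP libraries. The groups overlapped, and the log2 fold change of MX2 was -0.14 with a 95% interval of -0.35 to 0.08.

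OAS enzymes sense double-stranded RNA and make oligoadenylates that activate the nuclease RNase L. OAS3 (chr12:113376157-113411054, plus strand, hg19), the member that binds long double-stranded RNA, had 25.6, 23.1 and 24.1 CPM in ADAR1 p110 libraries and 33.9, 33.0 and 31.9 CPM in GFP libraries. The groups stood apart, and OAS3 fell, its log2 fold change being -0.44 ± 0.0611 (SE; edgeR adjusted p 0.00191). OAS2, its neighbour on chromosome 12, had 35.4, 33.7 and 37.5 CPM in ADAR1 p110 and 40.0, 37.7 and 39.6 CPM in GFP libraries. Those groups were also narrowly apart, but OAS2 did not pass the test (log2 fold change -0.14, edgeR adjusted p 0.246). OAS1 was near 4 CPM throughout, with 3.51, 4.0 and 4.13 CPM in ADAR1 p110 and 4.87, 3.67 and 4.02 CPM in GFP libraries. OASL, a relative without synthetase activity, had 66.2, 74.1 and 79.4 CPM in ADAR1 p110 and 76.4, 66.2 and 76.4 CPM in GFP libraries. Both groups of OASL spanned nearly the same range, and its log2 fold change was 0.00 with an interval of -0.17 to 0.18. Of the 4 OAS genes, 1 fell and 3 did not pass the test.

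PARP14, PARP9 and DTX3L lie in 1 stretch of chromosome 3 and act in ADP-ribosylation and ubiquitination. PARP14 (chr3:122399465-122449687, plus strand, hg19), an ADP-ribosyltransferase with macrodomains, had 135, 129 and 129 CPM in ADAR1 p110 libraries and 158, 171 and 162 CPM in GFP libraries. The groups stood apart, and the log2 fold change was -0.32 ± 0.0511 (SE; edgeR adjusted p 0.00438). PARP9 had 23.2, 22.4 and 24.8 CPM in ADAR1 p110 and 22.9, 23.0 and 22.9 CPM in GFP libraries, and DTX3L, the ubiquitin ligase that pairs with PARP9, had 58.5, 50.4 and 51.0 CPM in ADAR1 p110 and 55.0, 58.2 and 54.8 CPM in GFP libraries. Both overlapped between groups, with log2 fold changes of 0.04 and -0.07. PARP9 and DTX3L overlap on opposite strands, and whether counting used the strand is not given, so their reads cannot be told apart with certainty.

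SAMD9 and SAMD9L are adjacent paralogs on chromosome 7 that restrict poxviruses and cell growth. SAMD9L (chr7:92759368-92777682, minus strand, hg19) had 103, 95 and 97.4 CPM in ADAR1 p110 libraries and 123, 128 and 125 CPM in GFP libraries. The groups stood apart, and the log2 fold change was -0.35 ± 0.0517 (SE; edgeR adjusted p 0.00295). SAMD9 had 121, 119 and 124 CPM in ADAR1 p110 and 124, 131 and 127 CPM in GFP libraries. Its groups overlapped at 124 CPM, and its log2 fold change was -0.07 with an interval of -0.18 to 0.04.

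SP110, a nuclear body protein, and XAF1, a pro-apoptotic partner of XIAP, were the other 2 genes that fell. XAF1 (chr17:6658766-6678966, plus strand, hg19) had 16.3, 15.4 and 15.6 CPM in ADAR1 p110 libraries and 22.9, 22.1 and 20.9 CPM in GFP libraries, and the log2 fold change was -0.48 ± 0.0641 (SE; edgeR adjusted p 0.00162). SP110 (chr2:231032009-231090444, minus strand, hg19) had 8.79, 9.17 and 9.44 CPM in ADAR1 p110 and 11.6, 11.9 and 12.3 CPM in GFP libraries, and the log2 fold change was -0.39 ± 0.0702 (SE; edgeR adjusted p 0.00961). In both genes all ADAR1 p110 libraries lay below all GFP libraries. The fall of SP110 did not pass the test without GFP replicate 3 (edgeR adjusted p 0.0602). SP110 overlaps SP140 on the opposite strand, which had 43.9% as many counts and the same log2 fold change of -0.39 without passing the test, so the 2 genes' reads cannot be told apart with certainty. The other 5 genes that fell kept their direction and stayed under an adjusted p of 0.05 in each of the 14 alternative analyses, the highest being 0.0378 for PARP14.

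**Figure D3:**
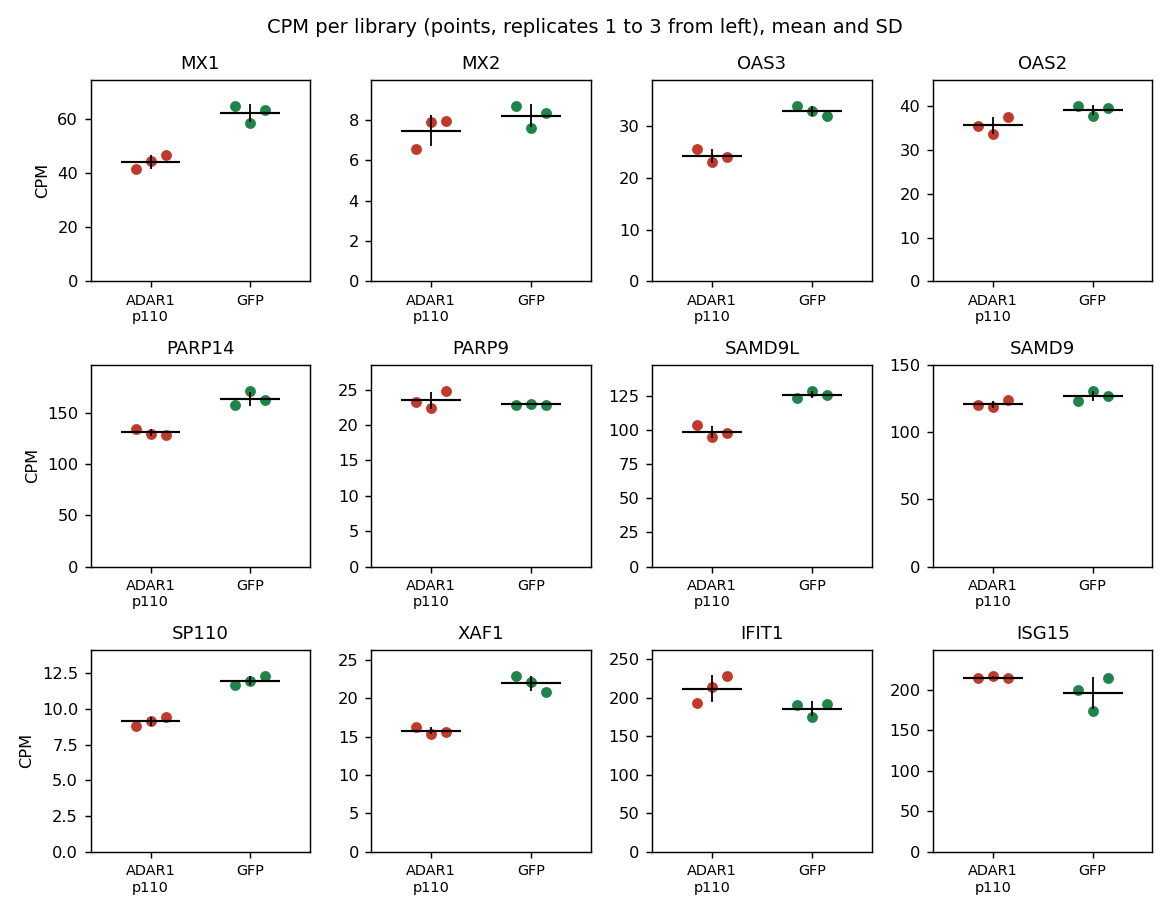
CPM in each library (points, replicates 1 to 3 from left) for 12 genes, with the mean (horizontal line) and SD (vertical line) of ADAR1 p110 (red) and GFP (green) libraries, each axis starting at 0. MX1, OAS3, PARP14, SAMD9L, SP110 and XAF1 show 3 red points under all 3 green points, while MX2, PARP9 and SAMD9 overlap and IFIT1 and ISG15 have their red points above the green.

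The IFIT proteins bind foreign RNA ends and block its translation, IFIT1 as the sensor of incompletely methylated caps with IFIT2 and IFIT3 as partners. IFIT1 had 193, 213 and 228 CPM in ADAR1 p110 libraries and 190, 175 and 192 CPM in GFP libraries. The groups were apart by a narrow margin, and IFIT1, with the highest log2 fold change of the 38 genes at 0.19 (SE 0.067), did not pass the test (unadjusted p 0.0182, edgeR adjusted p 0.16). It did pass without the low-count filter (edgeR adjusted p 0.0432) and without ADAR1 p110 replicate 1 (edgeR adjusted p 0.0138). IFIT2 had 170, 182 and 201 CPM in ADAR1 p110 and 177, 167 and 174 CPM in GFP libraries. IFIT3 had 345, 386 and 403 CPM in ADAR1 p110 and 397, 370 and 388 CPM in GFP libraries. IFIT5 had 84.3, 87.8 and 93.5 CPM in ADAR1 p110 and 90.9, 88.1 and 86.7 CPM in GFP libraries. IFIT2, IFIT3 and IFIT5 overlapped between groups, with log2 fold changes of 0.10, -0.03 and -0.00. All 4 were lowest of the ADAR1 p110 group in replicate 1, which stands apart on the second component, and the part of that library in these values was not tested beyond leaving it out. IFIT1, IFIT2 and IFIT3 each overlap LIPA on the opposite strand, which had 15.0% to 32.2% as many counts.

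The IFITM proteins sit in membranes and stop enveloped viruses from fusing. IFITM3, the most abundant of the family per kb, had 48.6, 50.03 and 51.7 CPM in ADAR1 p110 libraries and 56.2, 47.3 and 57.9 CPM in GFP libraries. IFITM1 had 7.27, 7.60 and 9.42 CPM in ADAR1 p110 and 7.28, 7.54 and 7.52 CPM in GFP libraries, and IFITM2 had 6.92, 7.13 and 7.49 CPM in ADAR1 p110 and 7.59, 5.93 and 7.81 CPM in GFP libraries. None of the 3 passed the test and all overlapped, with log2 fold changes of -0.10 for IFITM3, 0.12 for IFITM1 and 0.01 for IFITM2 and edgeR unadjusted p-values of 0.199, 0.268 and 0.919. The 3 genes are close paralogs, and in the table IFITM2 spans IFITM1 on the same strand, so how reads were split between them is uncertain. Without ADAR1 p110 replicate 3 the log2 fold change of IFITM1 was 0.0010.

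ISG15 is a ubiquitin-like protein that HERC5 attaches to other proteins and USP18 removes, and USP18 also restrains the type I receptor. ISG15 had 214, 217 and 214 CPM in ADAR1 p110 libraries and 200, 174 and 214 CPM in GFP libraries, with the ADAR1 p110 libraries above, though level with GFP replicate 3 at 3 digits. USP18 had 3.59, 3.1 and 3.01 CPM in ADAR1 p110 and 4.53, 3.65 and 3.66 CPM in GFP libraries, with the GFP libraries above. HERC5 had 63.1, 66.8 and 69.8 CPM in ADAR1 p110 and 57.7, 61.1 and 62.0 CPM in GFP libraries, with the ADAR1 p110 libraries above. HERC6, its relative, had 40.0, 41.1 and 46.3 CPM in ADAR1 p110 and 41.4, 44.2 and 42.1 CPM in GFP libraries, which overlapped. None of the 4 passed the test, with log2 fold changes of 0.13 for ISG15, -0.29 for USP18, 0.14 for HERC5 and -0.00 for HERC6 and edgeR adjusted p-values of 0.343, 0.244, 0.208 and 0.988. USP18, at 3 to 5 CPM, had the lowest log2 fold change of the genes not called, with an interval of -0.56 to -0.01. Without GFP replicate 1 the log2 fold change of USP18 was -0.17, and that of ISG20 was then lower, at -0.19.

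DDX60, a helicase-related protein, had a log2 fold change of 0.07 and its paralog DDX60L of -0.07. DDX60L overlaps PALLD on the opposite strand, which had 156% as many counts. RSAD2 (viperin), which makes a chain-terminating nucleotide from the product of CMPK2, had 7.79, 7.80 and 6.51 CPM in ADAR1 p110 and 8.15, 8.16 and 7.85 CPM in GFP libraries, with the GFP libraries just above. Its log2 fold change was -0.13 with an interval of -0.33 to 0.07, and that of CMPK2 was 0.08 with an interval of -0.29 to 0.45. These 2 genes overlap on opposite strands, and RSAD2 had 558% as many counts as CMPK2, so the level of CMPK2 is uncertain. IFI44 and IFI44L had log2 fold changes of -0.04 and -0.16, each with an interval that spans 0.

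Of the remaining members, 8 did not pass the test. LGALS3BP, with the highest CPM of the 38 genes, had 429, 460 and 466 CPM in ADAR1 p110 libraries and 472, 435 and 477 CPM in GFP libraries, and its groups overlapped (log2 fold change -0.03, interval -0.15 to 0.09). ISG20, an RNA exonuclease, had 12.0, 12.7 and 12.7 CPM in ADAR1 p110 and 15.5, 13.9 and 14.7 CPM in GFP libraries. Its groups stood apart, but the edgeR adjusted p was 0.0901 (log2 fold change -0.24, SE 0.0709). TRIM22, a ubiquitin ligase, had a log2 fold change of -0.19 with an interval of -0.40 to 0.02, and the TRIM5 gene that overlaps it on the opposite strand had 368% as many counts. BST2, EPSTI1, IFI27, IFI35 and IFI6 had log2 fold changes of -0.09, -0.06, -0.08, -0.08 and -0.04, and the interval of each spans 0.

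Levels of relatives were next set against each other within each library, which removes library scaling. All 29 pairs within the families and neighbour groups were compared by an exact two-sided permutation test over the 20 assignments of the 6 libraries, where the smallest p possible is 0.1 (adjusted over the 29 pairs, 0.193). No pair could therefore reach 0.05, and the ratios are given by their values. The groups stood apart for 15 pairs and overlapped for 14. How often pairs of other genes stand apart was not computed, so the 15 have no share to be read against. Of single tested genes, 12.2% had all ADAR1 p110 libraries below GFP and 11.8% above. Many pairs share a gene, so the 15 are not separate results. Which gene of a pair is on top is a matter of choice and sets the sign, and MX1, OAS3, PARP14 and SAMD9L were put on top. A ratio shows unequal change and not which gene moved.

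The pairs that hold a gene already called lower repeat that call against a relative. The MX1 to MX2 count ratio was 6.33, 5.61 and 5.86 in ADAR1 p110 libraries and 7.45, 7.70 and 7.56 in GFP libraries, a difference of -0.35 on the log2 scale. The SAMD9L to SAMD9 ratio was 0.858, 0.802 and 0.786 in ADAR1 p110 and 0.997, 0.982 and 0.985 in GFP libraries, a log2 difference of -0.28. PARP14 stood at 5.58 ± 0.337 times PARP9 in ADAR1 p110 and 7.15 ± 0.270 times in GFP libraries, and at 2.46 ± 0.141 times DTX3L in ADAR1 p110 and 2.92 ± 0.0482 times in GFP libraries (SD, n = 3 each). OAS3 to OAS2 was 0.684 ± 0.0407 in ADAR1 p110 and 0.844 ± 0.0343 in GFP libraries, and OAS3 to OASL was 0.334 ± 0.0460 in ADAR1 p110 and 0.454 ± 0.0413 in GFP libraries (SD, n = 3 each). The OAS3 to OAS1 ratio had a log2 difference of -0.34 but overlapped between groups, OAS1 being the least counted of the family.

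Within the IFIT family, the ratio of IFIT1 to each of the other 3 lay above GFP in every ADAR1 p110 library. The IFIT1 to IFIT3 ratio was 0.560, 0.553 and 0.566 in ADAR1 p110 libraries and 0.480, 0.471 and 0.496 in GFP libraries, a log2 difference of 0.21. The IFIT2 to IFIT3 ratio was 0.492, 0.472 and 0.500 in ADAR1 p110 and 0.445, 0.451 and 0.449 in GFP libraries, a log2 difference of 0.12. Neither pair of groups overlapped, although IFIT2 and IFIT3 by themselves overlapped between groups. ISG15 to USP18 was 66.9 ± 6.34 in ADAR1 p110 and 50.1 ± 7.51 in GFP libraries, HERC5 to USP18 was 20.8 ± 2.89 in ADAR1 p110 and 15.5 ± 2.37 in GFP libraries, and HERC5 to HERC6 was 1.57 ± 0.0597 in ADAR1 p110 and 1.42 ± 0.050 in GFP libraries (SD, n = 3 each). The exact p of each of these pairs was 0.1, the smallest possible.

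**Figure D4:**
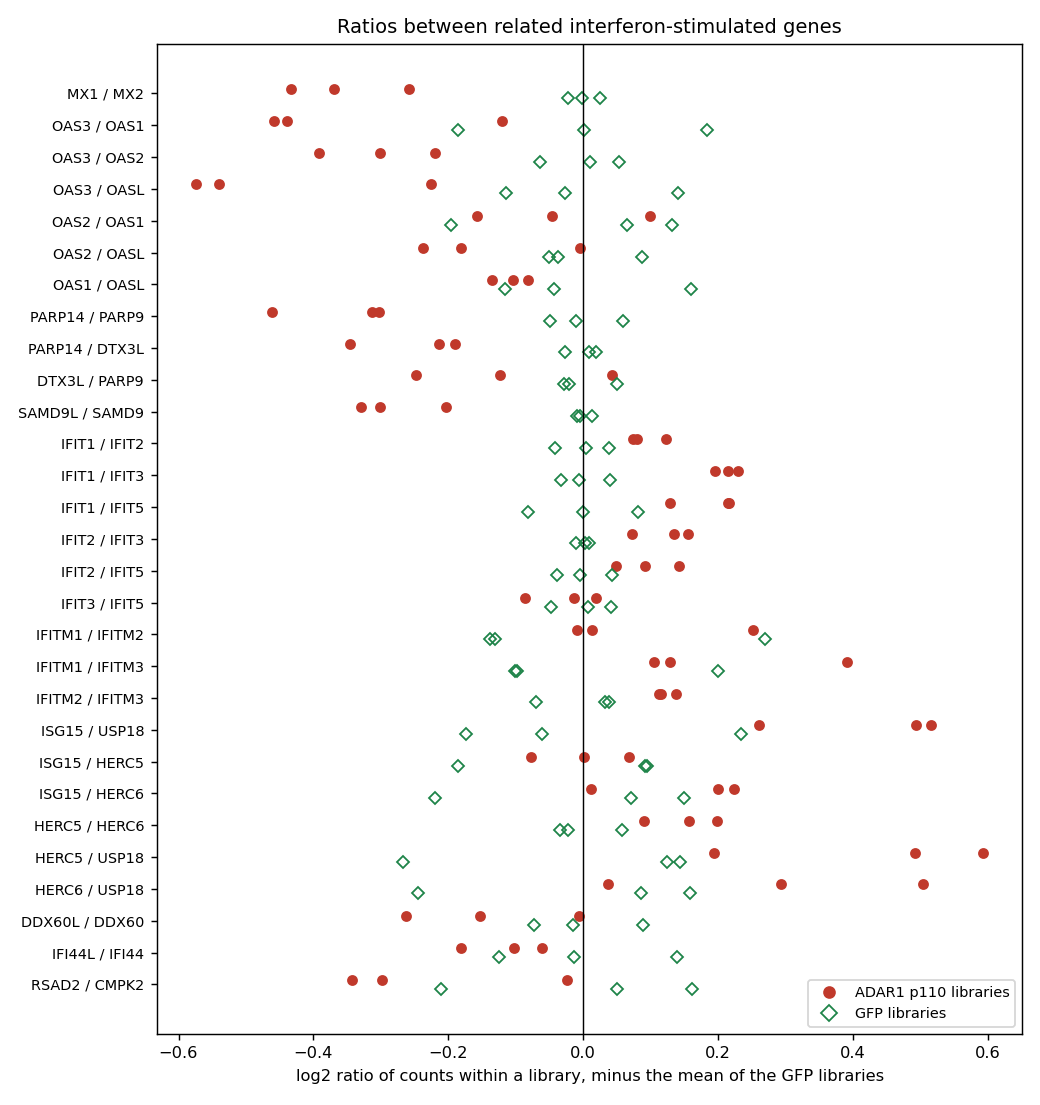
Log2 ratio of the counts of 2 related genes within a library, minus the mean of the GFP libraries, for all 29 pairs, with filled red circles for ADAR1 p110 and open green diamonds for GFP libraries. Circles and diamonds stand apart for 15 pairs, among them MX1 over MX2, SAMD9L over SAMD9 and IFIT1 over IFIT3, and overlap for 14, and the side depends on which gene is on top.

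The genes upstream were then read as lists in the same fit. Of 10 interferon ligand genes, none had enough counts to be tested, and 7, IFNB1 among them, were at 0 in every library. IFNL1, a type III interferon, had 0, 1 and 0 counts in ADAR1 p110 and 8, 3 and 2 counts in GFP libraries, the highest count of any ligand being 8. Of the 9 receptor chains and Janus kinases, 4 were lower and 0 higher, with a list median log2 fold change of -0.30. Over all tested genes 2.96% were lower and 1.95% higher, and the lists were chosen with earlier results of these data known. The IFN-gamma receptor chains fell in parallel, IFNGR1 to 48.9 ± 1.00 CPM in ADAR1 p110, against 65.5 ± 2.5 CPM in GFP libraries, and IFNGR2 to 70.05 ± 3.15 CPM in ADAR1 p110, against 93.6 ± 6.85 CPM in GFP libraries (SD, n = 3 each; log2 fold change -0.42 for both, edgeR adjusted p 0.00107 and 0.00361). JAK1 fell by 0.30 on the log2 scale (edgeR adjusted p 0.00473). IFNAR1, a chain of the type I receptor, fell by 0.35 (edgeR adjusted p 0.0194), a call lost in 6 of the 14 alternatives. TYK2 had a log2 fold change of -0.13 (interval -0.27 to 0.01) and IFNAR2 of -0.33 (interval -0.65 to -0.00).

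STAT2 and IRF9, partners in binding the ISRE, did not pass the test. STAT2 had a log2 fold change of 0.02 (interval -0.12 to 0.17) and IRF9, at 1.35 CPM in ADAR1 p110 and 1.36 CPM in GFP libraries, of 0.00 (interval -0.38 to 0.39). In contrast IRF1, an activator that binds ISRE-like sites, had 98.2, 94.2 and 104 CPM in ADAR1 p110 and 142, 132 and 134 CPM in GFP libraries. It fell by 0.46 on the log2 scale (edgeR adjusted p 0.00095), and its antagonist IRF2 fell by 0.43 (edgeR adjusted p 0.00286). IRF3 and IRF7 did not pass. IRF1 and IRF2 were the 2 lower genes of the STAT and IRF list, and 0 were higher. Of all tested genes, 2.96% were lower and 1.95% higher. Among 6 inhibitors of the pathway, the phosphatase gene PTPN1 rose by 0.28 (edgeR adjusted p 0.0298) and PTPN2 fell by 0.20 (edgeR adjusted p 0.0478), and both calls were lost in several alternatives. SOCS3 had a log2 fold change of 0.20 (edgeR adjusted p 0.157). PTPN6, at 2.42 CPM in ADAR1 p110 and 1.75 CPM in GFP libraries, had 0.47 (edgeR adjusted p 0.0712). Neither passed the test. In 3 of the 6 inhibitors every ADAR1 p110 library lay above every GFP library, and in 1 below. Over all tested genes these shares were 11.8% and 12.2%. The list median log2 fold change was 0.14.

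A list of 40 other interferon-inducible genes, all tested, held 13 that were lower, or 32.5%, and 0 that were higher. Over all tested genes 2.96% were lower and 1.95% higher. The list was chosen with earlier results of these data known, and its median log2 fold change was -0.18. In 27 of the 40 every ADAR1 p110 library lay below every GFP library, against 12.2% of all tested genes. The chemokine CXCL10 had 0.408, 0.254 and 0.828 CPM in ADAR1 p110 libraries and 2.30, 3.24 and 3.09 CPM in GFP libraries, its log2 fold change being -2.56 ± 0.32 (SE; edgeR adjusted p 0.000995). CXCL11 fell by 1.17 on the log2 scale, TNFSF10 (the death ligand TRAIL) by 0.88, and the guanylate-binding protein genes GBP4, GBP1 and GBP2 by 0.74, 0.41 and 0.35. TAP1 and PSMB9, of antigen processing, fell by 0.50 and 0.29. DDX58 (RIG-I, a cytoplasmic sensor of viral RNA) fell by 0.31, ZNFX1 by 0.28, UBE2L6, the conjugating enzyme for ISG15, by 0.27, APOL2 by 0.25 and SP100 by 0.23. The edgeR adjusted p of these genes ran from 9.87e-06 for TNFSF10 to 0.0331 for SP100. The calls of GBP2, DDX58, PSMB9, UBE2L6, APOL2 and SP100 were each lost in 2 to 6 of the alternatives, and the list held 7 lower genes without GFP replicate 1 or without GFP replicate 3, and 22 without ADAR1 p110 replicate 1 and GFP replicate 2. ZC3HAV1, the most abundant of the 40 by CPM, had a log2 fold change of -0.11 (edgeR adjusted p 0.237).

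**Figure D5:**
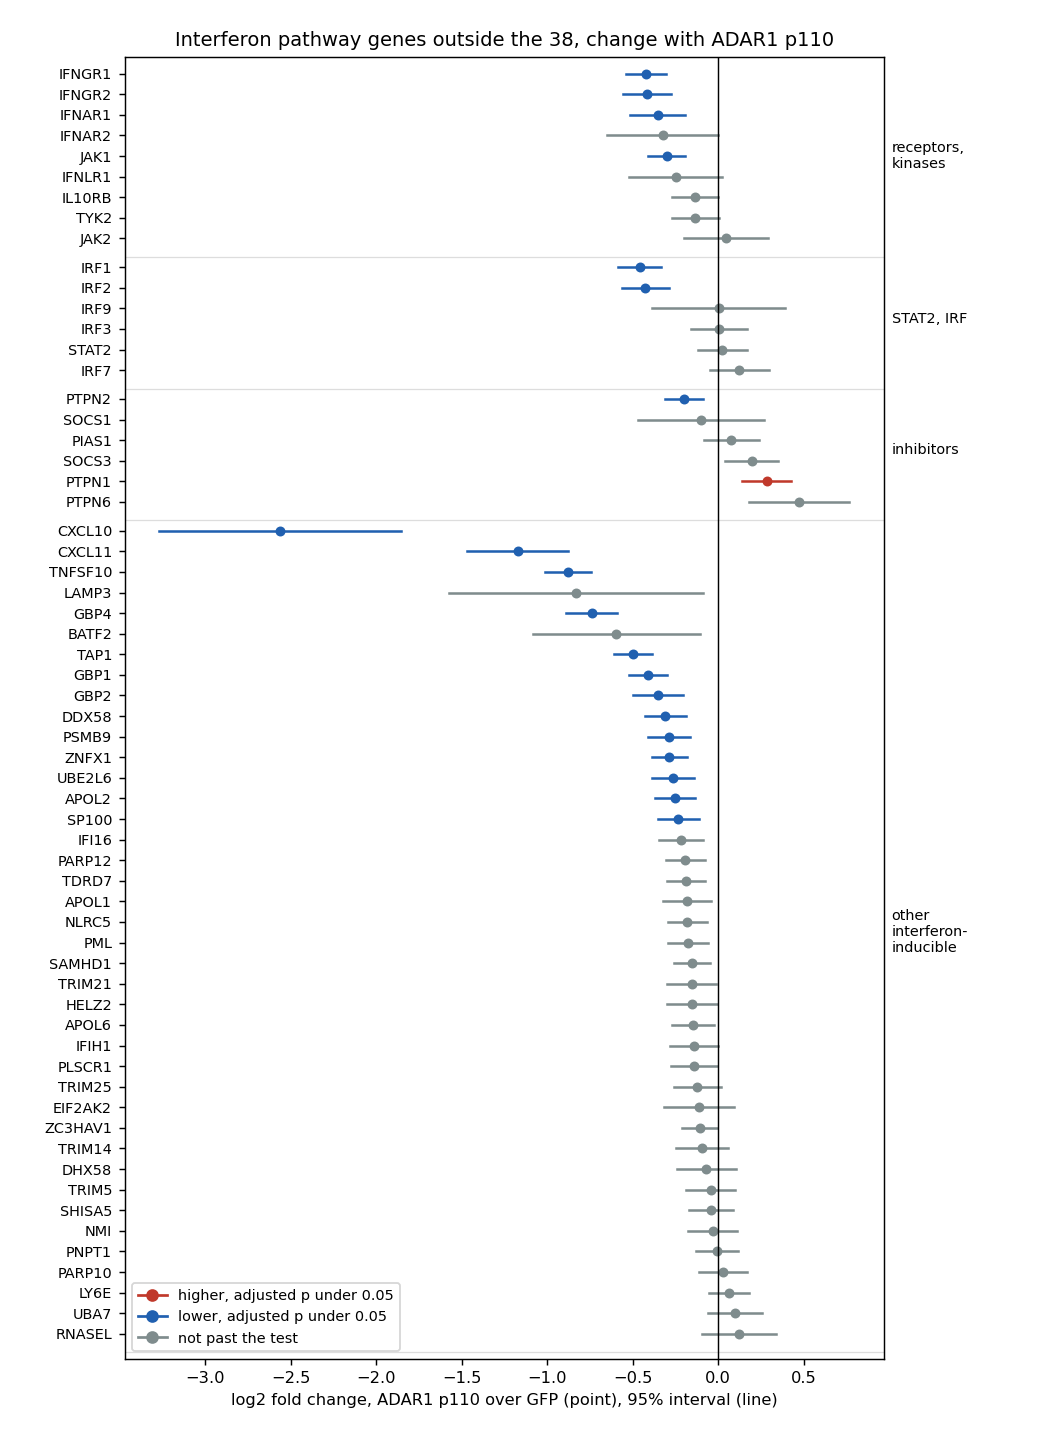
Log2 fold change, ADAR1 p110 relative to GFP (points), with its 95% interval (lines) for the tested interferon receptors and kinases, STAT2 and IRF factors, inhibitors and 40 other interferon-inducible genes, from the edgeR fit over 18899 genes. Blue genes were lower and the red gene, PTPN1, higher at an adjusted p under 0.05, with CXCL10 farthest left at -2.56, and STAT2 and IRF9 lie close to 0.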

How the data were processed

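Per the submitters' processing notes, reads were aligned to hg19 with STAR 2.5.2a and counted with featureCounts 1.5.1, with DESeq2 1.4.5 named for the authors' own testing. Libraries came from a stranded total RNA kit, per the labels' protocols. The authors deposited 1 table of raw whole-number counts per gene; its strand setting, and how it treated reads with several alignments, were not given in the sources used here. Genes were kept by filterByExpr of edgeR 4.0.16 (minimum count 10), scaled by TMM and tested by its quasi-likelihood functions (R 4.3.3) on group alone, with Benjamini-Hochberg adjustment over 18899 genes. The SE is the log2 fold change over the square root of F, and intervals cover 95%. The biological coefficient of variation was 8%. CPM are TMM-scaled, with SD over 3 libraries. Overlaps between genes were found from gene start and end, introns included. Their percentages compare counts of whole genes and not reads in the shared stretch. All members were accounted for, with values per library for those called, for the OAS, IFIT, IFITM, MX and PARP families, for the 3 most abundant per kb and for the extremes. Of the pathway lists, every called gene and up to 3 abundant genes were named; other names were added after their values were seen. The members and lists were chosen with earlier results of these data known. Alternatives were DESeq2 size factors, library size alone, no filter beyond 1 count, at least 1 CPM in 3 libraries, limma-voom (limma 3.58.1), DESeq2 1.42.0 with its Wald test, the replicate number as a block, and leaving out libraries. Scripts were tested on simulated counts. Replicates differed by more than sampling noise. A pathway gene is not reported here.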

Additional observations from a re-analysis of the deposited data

How the results depend on the processing

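Over the 14 alternatives, the 38 genes gave 532 log2 fold changes, of which 494 kept their direction and side of the threshold, 31 changed sign, 1 lost its call and 6 gained one. Every change of sign was in a gene that had not passed the test. Scaling by library size alone gave 0 lower inhibitors, HERC6 at 0.020 and IFIT5 at 0.023. Without a low-count filter, 742 genes were higher, 1 member (IFIT1) was higher, 0 inhibitors were lower and 2 higher, and IFIT5 was 0.00082. At 1 CPM or more in 3 libraries, HERC6 was 0.0042 and IFIT5 0.0073. DESeq2's Wald test gave 591 higher genes.

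With the replicate block, 333 genes were lower and 175 higher, and 0 inhibitors were called in either direction, while 6 members were lower and 0 higher. Deviations of same-numbered libraries correlated at -0.137, -0.060 and 0.058, and those of differently numbered libraries at -0.174 to 0.208. With 3 libraries a group, this cannot show whether same-numbered libraries were handled together. Leaving out 1 library at a time gave 296 to 1017 lower and 100 to 795 higher genes, 5 to 6 lower and 0 to 1 higher members, 0 to 1 lower and 0 to 3 higher inhibitors, and 7 to 18 lower genes among the other interferon-inducible ones. The log2 fold change then ranged from -0.0043 to 0.21 for CMPK2, -0.067 to 0.038 for HERC6, -0.078 to 0.011 for IFI44, -0.17 to 0.056 for IFI6, -0.071 to 0.035 for IFIT3, -0.039 to 0.034 for IFIT5, -0.096 to 0.087 for IFITM2, -0.067 to 0.0052 for LGALS3BP, -0.19 to 0.014 for OAS1, -0.057 to 0.071 for OASL, 0.0010 to 0.19 for IFITM1, -0.37 to -0.17 for USP18 and -0.0010 to 0.071 for PARP9. Without ADAR1 p110 replicate 1 and GFP replicate 2, 1424 genes were lower and 1181 higher, 2 members and 3 inhibitors were higher, 22 other interferon-inducible genes were lower, and CMPK2 was -0.067, HERC6 0.067, IFI6 0.094, IFIT3 0.011, IFIT5 0.032 and IFITM2 -0.073. The cause of these differences was not tested. Member counts ran from 88 to 46945 per library, and the median SE of their log2 fold changes was 0.0665.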
